A study of Mus musculus with 16 samples.

Results

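The genes described here are 55 genes of mitosis, the spindle and chromosome segregation, listed by symbol and looked up in the annotation of the array, and 54 of them were measured among 18193 genes. Ccnb1, which encodes cyclin B1, had no probe set assigned to it alone and was not analysed here. A probe set is the group of short oligonucleotides on the array that reads a transcript. A gene with several was represented by the brightest of them, judged on its mean across the 16 arrays. The series profiled the left lungs of 16 mice of the inbred strain Balb/c, each lung on its own Affymetrix Mouse Genome 430 2.0 array, when the mice were 23 weeks old. The 4 groups of 4 mice were females and males that had been exposed in utero to filtered air (air females, air males) or to second-hand smoke (SHS females, SHS males). The SHS was sidestream smoke at 10 mg/m3 of particles, with daily sessions of 5 h through all 7 days of the week. Mice of every group, controls included, received injections of OVA, the egg white protein ovalbumin that serves as a model allergen, at 19 and 21 weeks and breathed OVA aerosol during weeks 22 and 23, so each value below comes from an allergen-challenged lung. Mice are numbered 1 to 4 within a group as the labels number them. The sources used here name no mothers or litters, so p-values measure the spread between these mice, which may include littermates.

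When a cell enters mitosis, cyclin-dependent kinase 1 and its cyclins, with the Polo and Aurora kinases, drive condensation of the chromosomes and assembly of the spindle. Kinetochores, the protein plates on centromeres, attach chromosomes to spindle microtubules, and a checkpoint holds the anaphase-promoting complex inactive until all are attached. Most transcripts of this machinery accumulate in G2 and M phase and are low in resting cells, which make up most of an adult lung.

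The mitotic genes were higher in the lungs of SHS mice of both sexes. In females 47 of 54 rose and 0 fell, against a background of 3.29% of all genes called higher and 0.676% called lower (limma, adjusted p under 0.05). In males 47 of 54 rose and 0 fell, against 4.17% and 2.47% of all genes. The members were chosen with earlier results of these data known, so these counts describe them and do not test the set. No member was lower at an unadjusted p under 0.05 in either sex, and 50 and 51 were higher at that level. The median log2 difference, SHS minus air, was 0.86 in females and 0.69 in males, beside 0.0003 and 0.0084 over all 18193 genes. The rise reached 1.5-fold for 39 genes in each sex (1.15% of all genes in females and 1.23% in males) and 2-fold for 18 in females and 7 in males (0.286% and 0.28%). For 48 genes in females all 4 SHS lungs lay above all 4 air lungs, which held for 7.74% of all genes, and for 46 in males (10.5%). In RNA of a whole lung, more dividing cells cannot be told apart from more of these transcripts in each cell.

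**Figure D1:**
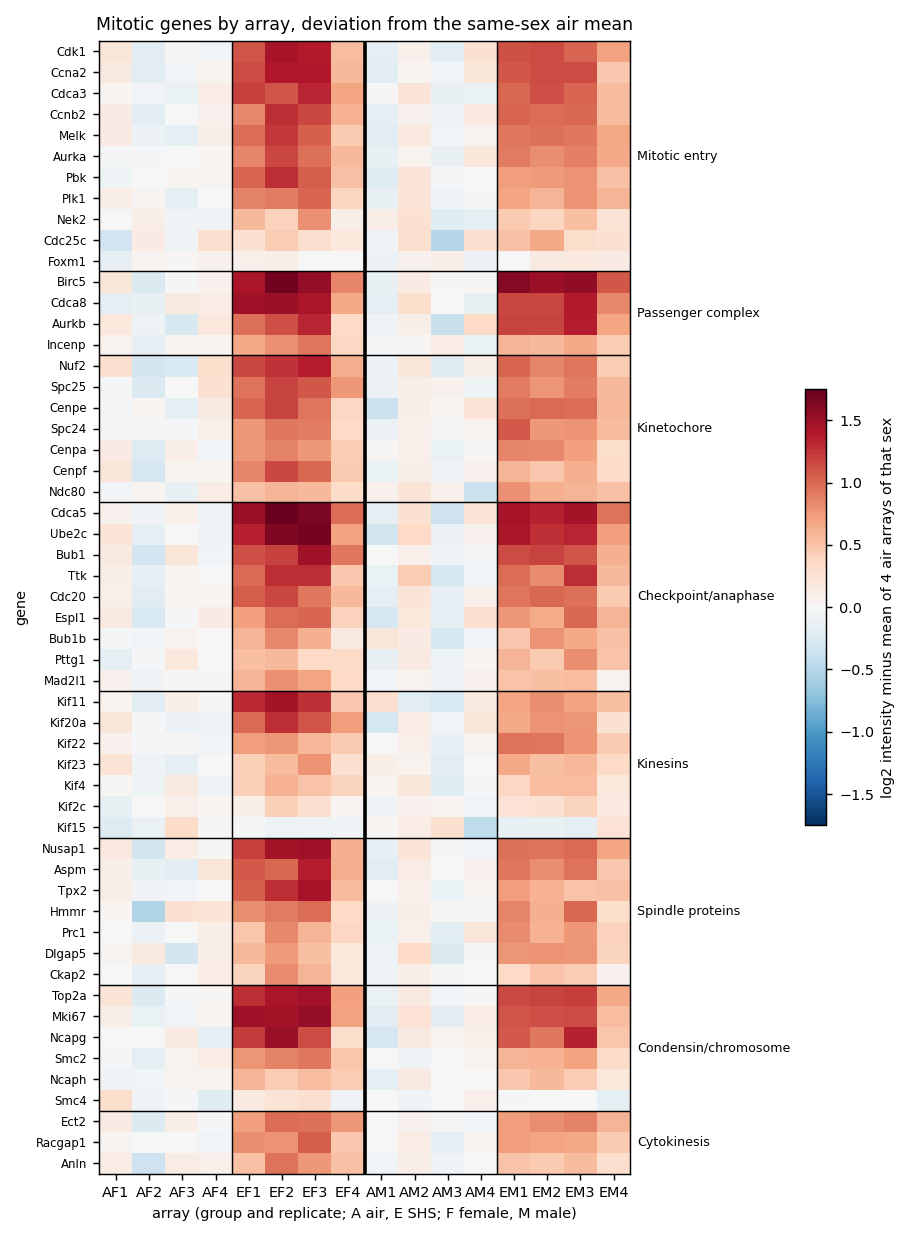
Deviation of each mitotic gene (rows, grouped by role) in each array (columns) from the mean of the 4 air arrays of the same sex, in log2 intensity; red is higher and blue lower. The SHS arrays of both sexes are red for most genes, with the lungs numbered 4 paler, and Foxm1, Kif15 and Smc4 are close to white in most arrays.

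Many promoters of mitotic genes carry a hexamer called the cell cycle genes homology region, TTTGAA or TTCGAA, which the MuvB protein complex binds, and CCAAT boxes, which the factor NF-Y binds. Promoters from 250 bases before to 50 bases after the start site were available from RefSeq (mouse build GRCm38.p6) for 43 of the 54 genes. TTTGAA on either strand lay in 33 of the 43 (76.7%) and in 20.2% of 27025 genes of the same table. CCAAT on either strand lay in 31 (72.1%, beside 41.1%), at least 2 CCAAT in 20 (46.5%, beside 13.3%), and CCAAT together with TTTGAA in 28 (65.1%, beside 7.97%). The palindrome TTCGAA was in 3 (6.98%, beside 1.8%). The letters TTTGGCGC and TTTCCCGC, as read by E2F factors of S phase genes, were in 1 promoter each (2.33%, beside 0.585% and 1.24%). TTTGAA lay from 60 bases before to 20 after the start in 22 promoters (51.2%, beside 5.15%), a window chosen after the positions were seen. The median position of its 46 occurrences was -12. Prc1 and Ect2 had 2 overlapping promoters each, so the same TTTGAA of these genes entered that count once per promoter. Matches are letters only, on either strand, and may overlap each other. Ccna2, Pbk, Foxm1, Cdc25c, Aurkb, Incenp, Spc24, Kif20a, Tpx2, Dlgap5 and Smc4 were not analysed for motifs here. The 6 promoters printed were picked to hold both CCAAT and TTTGAA or TTCGAA. They show how the letters are spaced, not how often they occur. They belong to the genes with the largest mean rises among those with values in every array below and with such a promoter. Birc5, Nuf2 and Nusap1 held none of these motifs and Cdca5 no CCAAT, so these were passed over despite larger mean rises than that of Aspm. Capitals mark the CCAAT box and the hexamers TTTGAA and TTCGAA, and where a capital run reads differently it is the reverse complement. They are Ube2c (chr2:164769679-164769978, plus strand), Cdca8 (chr4:124936868-124937167, minus strand), Top2a (chr11:99024140-99024439, minus strand), Mki67 (chr7:135716330-135716629, minus strand), Cdk1 (chr10:69352863-69353162, minus strand) and Aspm (chr1:139454523-139454822, plus strand), each written 5′ to 3′ in the direction of transcription.
Ube2c: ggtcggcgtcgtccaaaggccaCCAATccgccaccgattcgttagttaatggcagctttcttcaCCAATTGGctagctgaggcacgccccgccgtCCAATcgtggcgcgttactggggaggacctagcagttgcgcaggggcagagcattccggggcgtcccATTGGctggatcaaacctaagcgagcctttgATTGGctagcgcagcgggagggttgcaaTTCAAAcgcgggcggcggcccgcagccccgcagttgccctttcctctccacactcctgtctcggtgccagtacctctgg
Cdca8: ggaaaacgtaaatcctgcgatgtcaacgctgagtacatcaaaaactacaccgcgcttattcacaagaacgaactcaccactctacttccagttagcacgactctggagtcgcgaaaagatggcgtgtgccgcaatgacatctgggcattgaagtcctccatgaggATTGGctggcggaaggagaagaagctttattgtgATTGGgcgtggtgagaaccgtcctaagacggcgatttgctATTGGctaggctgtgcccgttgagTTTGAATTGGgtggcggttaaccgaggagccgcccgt
Top2a: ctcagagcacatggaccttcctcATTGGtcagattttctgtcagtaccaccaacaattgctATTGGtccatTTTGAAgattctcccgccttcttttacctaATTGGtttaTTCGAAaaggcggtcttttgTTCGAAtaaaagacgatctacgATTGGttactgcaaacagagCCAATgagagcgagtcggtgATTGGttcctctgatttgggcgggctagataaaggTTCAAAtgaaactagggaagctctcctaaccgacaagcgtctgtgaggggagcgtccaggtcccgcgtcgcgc
Mki67: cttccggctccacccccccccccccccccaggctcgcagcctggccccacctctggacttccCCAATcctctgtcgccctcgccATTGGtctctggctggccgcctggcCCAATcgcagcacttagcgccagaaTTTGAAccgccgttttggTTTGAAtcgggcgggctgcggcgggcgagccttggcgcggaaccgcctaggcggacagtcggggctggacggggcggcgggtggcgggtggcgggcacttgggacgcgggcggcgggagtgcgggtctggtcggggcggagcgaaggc
Cdk1: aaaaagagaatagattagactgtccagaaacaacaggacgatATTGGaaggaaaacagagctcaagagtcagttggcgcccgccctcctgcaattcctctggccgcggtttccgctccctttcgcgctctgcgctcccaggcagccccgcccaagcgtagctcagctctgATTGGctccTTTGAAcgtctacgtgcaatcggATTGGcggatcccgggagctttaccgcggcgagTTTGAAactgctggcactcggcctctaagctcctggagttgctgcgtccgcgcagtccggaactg
Aspm: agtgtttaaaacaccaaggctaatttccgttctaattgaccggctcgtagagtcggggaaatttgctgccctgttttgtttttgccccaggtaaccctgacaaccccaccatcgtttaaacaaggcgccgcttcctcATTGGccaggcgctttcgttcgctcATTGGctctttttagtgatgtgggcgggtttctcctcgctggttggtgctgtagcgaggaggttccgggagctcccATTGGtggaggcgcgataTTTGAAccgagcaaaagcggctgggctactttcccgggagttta

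The letters stood in differing arrangements among these 6. In the Ube2c promoter CCAAT occurred 6 times, including an overlapping pair read from opposite strands, with TTTGAA once, 29 bases before the start. Top2a had 6 CCAAT, 2 TTTGAA and 2 TTCGAA. In Cdca8, with 4 CCAAT, the TTTGAA at position 14 after the start shared a base with the last CCAAT. Mki67 and Cdk1 each had 3 CCAAT and 2 TTTGAA, and Aspm 3 CCAAT and 1 TTTGAA. Birc5, the gene with the largest rise in males, held none of the 5 motifs in its window. TTTGAA was in 30 of 39 promoters of genes called in both sexes (76.9%) and in 3 of 4 of the genes not called in both. The motif was not confined to the members. Its share was 75% in 4 other condensin subunits, 58.3% in 12 outer kinetochore and checkpoint partners, 44.4% in 9 cytokinesis partners and 40% in 20 other mitotic motors and spindle factors. It was 33.3% in 9 genes of the MuvB and E2F list, 25% in 16 genes of the centromere list and in 12 inhibitors and quiescence factors, and 22.2% in 9 G1 genes. The S phase list (12 genes, CCAAT in 75%) and the tubulins (6) had 16.7% each, 13 subunits of the anaphase-promoting complex 15.4%, 9 cohesin genes 11.1%, 11 transport kinesins 9.09% and 10 meiosis genes 0%.

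Of 11 measured kinases, cyclins and regulators of mitotic entry, 8 rose in females and the same 8 in males, with median differences of 0.93 and 0.82. Cdk1, the kinase that starts mitosis, lay at 8.13, 7.74, 7.93 and 7.87 in the 4 air females and at 9.01, 9.35, 9.31 and 8.45 in the 4 SHS females, on the deposited log2 scale. In males it lay at 7.80, 8.06, 7.78 and 8.24 after air and at 9.08, 9.11, 8.99 and 8.67 after SHS. Every SHS lung was above every air lung of its sex, and lung 4 was the lowest of both SHS groups. The differences were 1.12 ± 0.16 (SE, n = 4 and 4, 2.17-fold, adjusted p = 0.00119) in females and 0.99 ± 0.16 (1.99-fold, adjusted p = 0.00222) in males. Ccna2, cyclin A2, which acts in S phase and at mitotic entry, was at 7.95, 7.61, 7.75 and 7.86 in air and 8.93, 9.19, 9.20 and 8.36 in SHS females. Its male values were 7.44, 7.67, 7.58 and 7.82 after air and 8.71, 8.77, 8.77 and 8.10 after SHS. The groups did not overlap, and SHS lung 4 stood apart below the other 3 in each sex. Ccna2 rose by 1.12 ± 0.17 (adjusted p = 0.00141) in females and 0.96 ± 0.17 (adjusted p = 0.00341) in males.

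The other 6 called genes of this group spanned 0.79 to 1.08 in females and 0.67 to 0.93 in males. Cdca3, which triggers destruction of the inhibitory kinase Wee1, rose by 1.08 and 0.93 in females and males, and Ccnb2, cyclin B2, by 0.98 and 0.89. For the kinases Pbk and Melk, both high in dividing cells, the rises were 0.97 and 0.69, and 0.93 and 0.87. Aurka, the Aurora kinase of centrosomes, rose by 0.89 and 0.82 and Plk1, the Polo kinase, by 0.79 and 0.67. Their adjusted p in limma ran from 0.000272 (Aurka, females) to 0.00397 (Pbk, males), and all 8 lungs of the SHS groups lay above all air lungs of their sex for each of the 6.

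The 4 genes of the chromosomal passenger complex, which corrects faulty attachments and later guides cytokinesis, all rose in both sexes, with medians of 1.11 and 1.12. Birc5, survivin, the subunit that anchors the complex to chromosomes, was at 7.20, 6.74, 6.98 and 7.07 in air females and 8.43, 8.68, 8.53 and 7.84 in SHS females. In males it was at 6.88, 7.16, 6.98 and 7.04 and 8.61, 8.51, 8.57 and 8.10. The gap between the highest air and the lowest SHS lung was wide in both sexes. Birc5 rose 2.60-fold in females (1.38 ± 0.15, adjusted p = 0.000227) and 2.70-fold in males (1.43 ± 0.15, adjusted p = 9.45e-05). Cdca8, borealin, its partner, lay at 6.78, 6.81, 7.10 and 7.07 and 8.42, 8.44, 8.36 and 7.61 in air and SHS females and at 7.36, 7.83, 7.53 and 7.40 and 8.70, 8.69, 8.92 and 8.37 in air and SHS males. Its groups did not overlap either, and SHS female 4 stood apart below the other 3. The rise was 1.27 ± 0.16 (adjusted p = 0.000427) and 1.14 ± 0.16 (adjusted p = 0.000788), and the promoter printed above for this gene holds 4 CCAAT. Aurkb, the kinase of the complex, rose by 0.94 (adjusted p = 0.0129) and 1.11 (adjusted p = 0.0034), and in females it was not called without air female 3 (adjusted p = 0.0555) or SHS female 3. Incenp, the scaffold, rose by 0.69 and 0.57.

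All 7 kinetochore genes rose in both sexes, with medians of 0.87 in females and 0.79 in males. Nuf2, a subunit of the Ndc80 complex that grips microtubules, was at 6.42, 5.81, 5.86 and 6.44 in air and 7.31, 7.40, 7.501 and 6.77 in SHS females. After air the males lay at 6.55, 6.86, 6.42 and 6.77 and after SHS at 7.67, 7.51, 7.59 and 7.10. The air females split into a higher and a lower pair, and still no air lung reached an SHS lung of its sex. Nuf2 rose by 1.11 ± 0.18 (adjusted p = 0.00185) and 0.82 ± 0.18 (adjusted p = 0.0116). Spc25, another subunit of that complex, lay at 6.497, 6.26, 6.53 and 6.78 and 7.46, 7.69, 7.60 and 7.27 in air and SHS females and at 7.00, 7.21, 7.19 and 7.03 and 8.02, 7.87, 7.997 and 7.68 in air and SHS males. SHS and air lungs were apart in both sexes, with differences of 0.99 ± 0.11 (adjusted p = 0.000227) and 0.79 ± 0.11 (adjusted p = 0.000729). The remaining 2 subunits, Ndc80 and Spc24, rose by 0.50 and 0.64, and by 0.74 and 0.79. Cenpa, the histone H3 variant that marks centromeres, rose by 0.71 and 0.68. The kinetochore motor Cenpe rose by 0.88 and 0.88, and its partner Cenpf by 0.87 and 0.51. Ndc80 in females was not called without air female 3 (adjusted p = 0.0679) or any of SHS females 1, 2 and 3. Cenpf in males was not called without air male 1 or 3 or SHS male 1, 2 or 3 (highest adjusted p = 0.0992, without SHS male 3).

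The spindle checkpoint and anaphase group, 9 genes, rose in full in both sexes, with medians of 0.93 and 0.84. Cdca5, sororin, which protects cohesion between sister chromatids until anaphase, was at 6.39, 6.26, 6.41 and 6.23 in air females and at 7.82, 8.04, 7.96 and 7.30 in SHS females. It was at 6.52, 6.94, 6.31 and 6.90 in air males and at 8.11, 8.01, 8.12 and 7.61 in SHS males. The air females lay close together and far below the SHS females, and in males the groups were apart as well. Cdca5 rose 2.75-fold in females (1.46 ± 0.16, adjusted p = 0.000218) and 2.46-fold in males (1.30 ± 0.16, adjusted p = 0.000294). Ube2c, the ubiquitin-conjugating enzyme that works with the anaphase-promoting complex, was at 8.61, 8.20, 8.37 and 8.32 and 9.74, 10.00, 10.05 and 9.08 in air and SHS females. Its male values were 8.14, 8.80, 8.35 and 8.53 and 9.89, 9.74, 9.79 and 9.19. SHS lung 4 was lowest in both sexes and nearest to the air lungs. The rise was 1.34 ± 0.19 (adjusted p = 0.000988) in females and 1.19 ± 0.19 (adjusted p = 0.00187) in males.

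Among the checkpoint kinases, Bub1 rose by 1.18 and 1.01 in females and males, and Ttk by 1.01 and 0.92. Bub1b and Mad2l1, which form part of the inhibitor of the anaphase-promoting complex, rose by 0.55 and 0.61, and by 0.61 and 0.41. Cdc20, the activator that they restrain, rose by 0.93 and 0.84. Espl1, separase, which cuts cohesin, rose by 0.78 and 0.75, and its inhibitor Pttg1, securin, by 0.44 and 0.59. In males the SHS and air values of Mad2l1 overlapped, since SHS male 4, at 9.12, lay below the highest air male. Bub1b in females lost its call without any single air female or without SHS female 1, 2 or 3 (highest adjusted p = 0.0861, without SHS female 2). Pttg1 in females lost it without air female 2 or SHS female 1 or 2 (highest 0.0644, adjusted p without SHS female 1). Mad2l1 in males lost it without air male 1 or 3 or SHS male 1, 2 or 3 (highest adjusted p = 0.108, without SHS male 3).

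Of 7 kinesins, motor proteins that move along microtubules, 5 rose in both sexes, with medians over all 7 of 0.51 and 0.53. Kif11, which pushes the spindle poles apart, was at 6.55, 6.31, 6.61 and 6.52 in air females and 7.81, 7.95, 7.78 and 6.97 in SHS females. In males it was at 6.67, 6.18, 6.10 and 6.53 after air and 7.06, 7.18, 7.07 and 6.89 after SHS. Lungs 1 to 3 of the SHS females lay far above the air females and lung 4 between, while the SHS males lay close together just above the air males. Kif11 rose by 1.13 ± 0.17 (adjusted p = 0.00129) and 0.68 ± 0.17 (adjusted p = 0.0256), and the male call was lost without air male 2 or 3 or SHS male 1, 2 or 3 (highest adjusted p = 0.0875, without air male 3). Kif20a, a motor of the central spindle in late mitosis, lay at 6.45, 6.22, 6.14 and 6.17 and 7.23, 7.54, 7.35 and 6.98 in air and SHS females and at 6.26, 6.70, 6.52 and 6.78 and 7.22, 7.35, 7.34 and 6.83 in air and SHS males. In males SHS lung 4 exceeded the highest air lung by little. Its rise was 1.03 ± 0.14 (adjusted p = 0.000467) and 0.62 ± 0.14 (adjusted p = 0.0134), and the male call was lost without air male 1 or SHS male 3 (highest adjusted p = 0.0536). Kif22, which pushes chromosome arms outward, rose by 0.64 and 0.79. Kif23, a motor of the midzone, rose by 0.51 and 0.53, and Kif4, a chromosome-bound motor, by 0.48 and 0.41. Kif23 was not called in females without air female 2 or 3 or SHS female 2 or 3 (highest adjusted p = 0.065, without air female 3). In males Kif4 was called in only 11 of the 16 fits with 1 array left out. The arrays whose loss cost the call included air males 3 and 4 and SHS males 2 and 3 (highest adjusted p = 0.0863, without SHS male 3). The male groups of Kif4 overlapped.

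The 7 spindle proteins had medians of 0.77 in females and 0.68 in males, and 6 rose in each sex. Nusap1, which bundles microtubules near chromosomes, was at 7.81, 7.32, 7.76 and 7.66 in air females and 8.83, 9.09, 9.12 and 8.25 in SHS females. The males were at 7.88, 8.26, 7.998 and 7.98 after air and 8.99, 8.98, 9.02 and 8.71 after SHS. SHS males 1 to 3 lay close together, lung 4 lay below them, and no groups overlapped. Nusap1 rose by 1.19 ± 0.16 (adjusted p = 0.000442) and 0.90 ± 0.16 (adjusted p = 0.00306). Aspm, which holds microtubules at the spindle poles, was at 6.42, 6.19, 6.13 and 6.53 and 7.39, 7.32, 7.69 and 6.95 in air and SHS females and at 6.93, 7.27, 7.13 and 7.21 and 8.05, 7.94, 8.09 and 7.60 in air and SHS males. Its groups were apart in both sexes, with rises of 1.02 ± 0.14 (adjusted p = 0.00064) and 0.79 ± 0.14 (adjusted p = 0.00341), though the mean of its 5 probe sets was not called in males (adjusted p = 0.063). Tpx2, which activates Aurka on the spindle, rose by 1.08 ± 0.13 and 0.59 ± 0.13, and the male call was lost without air male 3 or SHS male 1 (highest adjusted p = 0.0546). Prc1, which crosslinks the central spindle, rose by 0.57 and 0.65. Hmmr, a microtubule-binding protein that is also a hyaluronan receptor, rose by 0.77 and 0.69. It lost its call in females without air female 2 or SHS female 1, 2 or 3 (highest adjusted p = 0.0725, without SHS female 3), and in males without air male 1, 3 or 4 or SHS male 1, 2 or 3 (highest adjusted p = 0.0957, without SHS male 3).

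Of the 6 genes of chromosome structure, 5 rose in both sexes, with medians of 0.90 and 0.76. Top2a, the topoisomerase that untangles sister chromatids, was at 8.49, 8.03, 8.24 and 8.29 in air females and 9.55, 9.69, 9.73 and 8.98 in SHS females. For males the values were 8.56, 8.83, 8.62 and 8.69 after air and 9.84, 9.86, 9.89 and 9.34 after SHS. All SHS lungs were above all air lungs, and both lungs numbered 4 lay below the other 3 of their group. The rise was 1.23 ± 0.15 (adjusted p = 0.000318) and 1.05 ± 0.15 (adjusted p = 0.000788). Mki67, the Ki-67 protein of the chromosome surface and a common marker of proliferation, was at 8.90, 8.67, 8.74 and 8.86 and 10.28, 10.25, 10.33 and 9.49 in air and SHS females. In males it was at 9.28, 9.72, 9.26 and 9.59 and 10.56, 10.59, 10.60 and 10.00. SHS lungs 1 to 3 differed little among themselves in either sex, and lung 4 stood apart below them, still above every air lung. Mki67 rose 2.46-fold in females (adjusted p = 0.000442) and 1.97-fold in males (adjusted p = 0.00307). The condensin subunits Ncapg, Ncaph and Smc2, which fold mitotic chromosomes, rose by 1.05, 0.50 and 0.76 in females and by 0.96, 0.42 and 0.56 in males.

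All 3 cytokinesis genes rose in both sexes, with medians of 0.79 and 0.64. Ect2, which switches on the RhoA protein where the cell will cleave, was at 6.68, 6.30, 6.65 and 6.51 in air females and 7.26, 7.51, 7.49 and 7.29 in SHS females. It was at 7.15, 7.22, 7.13 and 7.11 in air males and 7.88, 7.97, 8.02 and 7.74 in SHS males. The spread within groups was small, SHS female 4 was not the lowest of its group here, and no groups overlapped. Ect2 rose by 0.85 ± 0.09 (adjusted p = 0.000187) and 0.75 ± 0.09 (adjusted p = 0.000255). Racgap1, the partner of Kif23 in the midzone, was at 8.05, 7.995, 8.002 and 7.96 and 8.82, 8.79, 9.06 and 8.48 in air and SHS females and at 7.36, 7.49, 7.20 and 7.41 and 8.10, 8.05, 8.04 and 7.82 in air and SHS males. The air females lay within a narrow band, and all SHS lungs exceeded the air lungs of their sex. The differences were 0.79 ± 0.10 (adjusted p = 0.000407) and 0.64 ± 0.10 (adjusted p = 0.00162). Anln, anillin, the scaffold of the contractile ring, rose by 0.68 and 0.45, and its male call was lost without air male 1, 3 or 4 or SHS male 1, 2 or 3 (highest adjusted p = 0.0922, without SHS male 3) and with the mean of its probe sets (adjusted p = 0.139).

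**Figure D2:**
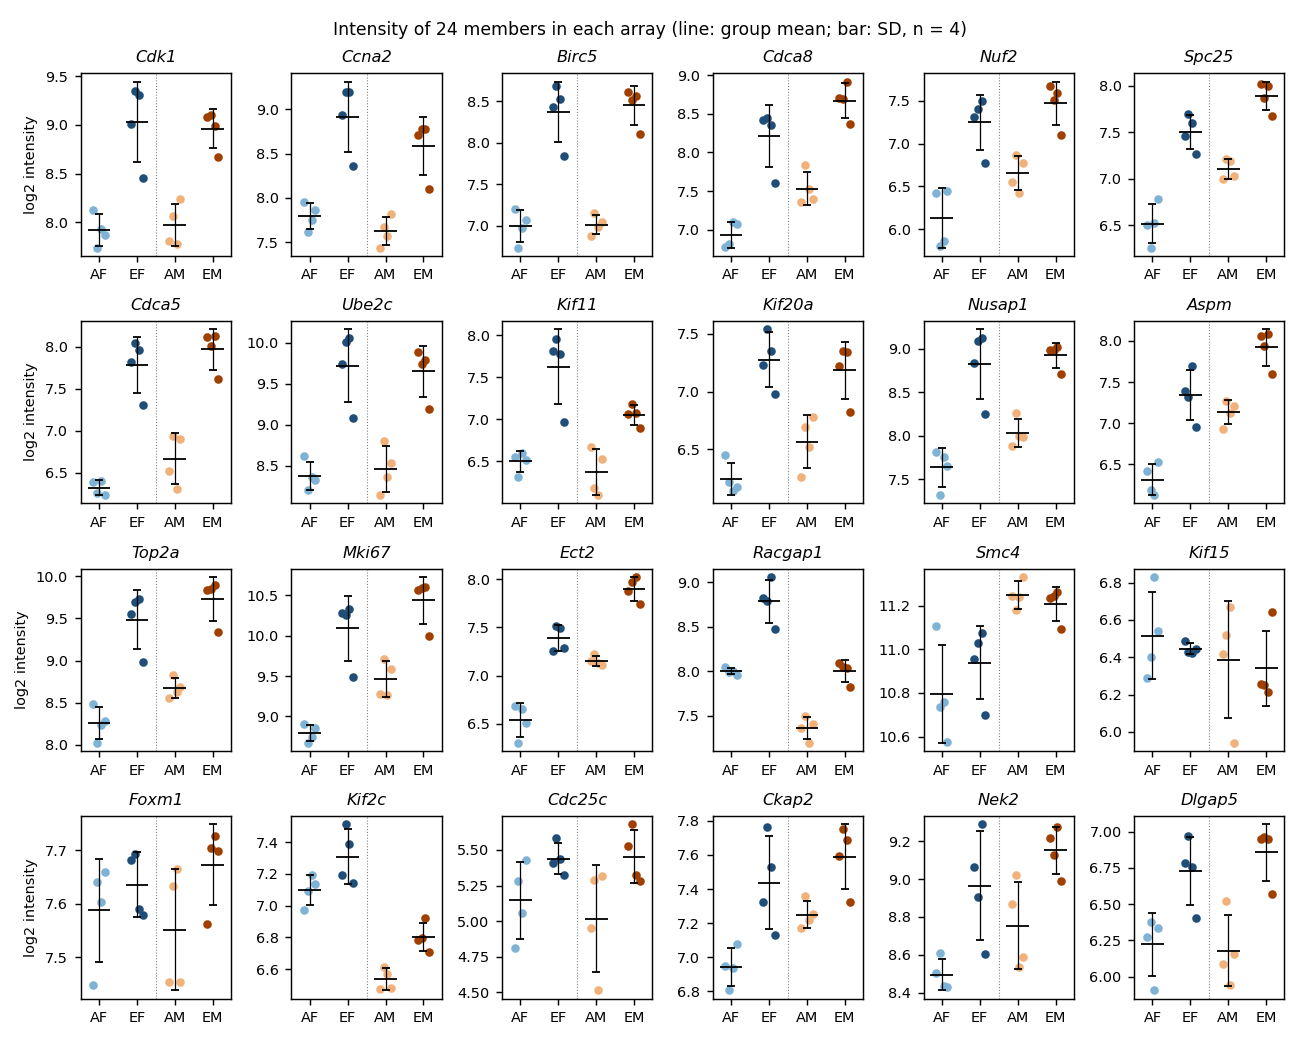
Log2 intensity (vertical axes, a separate scale for each gene) of 24 mitotic genes in each lung of the 4 groups (AF air females, EF SHS females, AM air males, EM SHS males); points are lungs, lines group means and bars SD with n = 4. The first 16 panels show SHS lungs above all air lungs of their sex, and the last 8 show the genes not called in both sexes; the sexes are not compared.

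The remaining 8 genes were not called in both sexes. Foxm1, the transcription factor that drives many G2 and M phase genes, lay at 7.45, 7.64, 7.60 and 7.66 in air and 7.68, 7.69, 7.59 and 7.58 in SHS females, and at 7.45, 7.63, 7.67 and 7.45 in air and 7.56, 7.70, 7.73 and 7.70 in SHS males. SHS and air lungs overlapped in both sexes. The differences were 0.05 ± 0.07 (adjusted p = 0.815, 95% interval -0.10 to 0.20) and 0.12 ± 0.07 (adjusted p = 0.371, -0.03 to 0.27). Another of its 4 probe sets was called higher in males (0.44, adjusted p = 0.0142) and gave 0.31 in females (adjusted p = 0.0956). Smc4, which pairs with Smc2 in condensin, lay at 11.11, 10.74, 10.76 and 10.58 and 10.95, 11.03, 11.07 and 10.70 in air and SHS females and at 11.24, 11.18, 11.24 and 11.33 and 11.23, 11.24, 11.26 and 11.09 in air and SHS males. Its groups overlapped, with differences of 0.14 ± 0.10 (95% interval -0.07 to 0.36, adjusted p = 0.532) and -0.04 ± 0.10 (-0.25 to 0.17, adjusted p = 0.872), and none of its 3 probe sets was called in either sex. The upper ends of these intervals, 0.36 and 0.17, lay below the fitted difference of Smc2, 0.76 and 0.56.

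Kif15, a kinesin that helps keep spindle poles apart, lay at 6.29, 6.40, 6.83 and 6.54 in air and 6.49, 6.43, 6.42 and 6.45 in SHS females, and at 6.42, 6.52, 6.67 and 5.94 in air and 6.26, 6.25, 6.21 and 6.64 in SHS males. The air lungs spread on both sides of the SHS lungs in each sex. Its differences of -0.07 ± 0.14 (adjusted p = 0.868) and -0.05 ± 0.14 (adjusted p = 0.898) changed sign without air female 3 and without air male 3, to 0.036 and 0.049. Kif2c, a kinesin that takes microtubules apart, was at 6.97, 7.09, 7.19 and 7.14 and 7.20, 7.51, 7.39 and 7.14 in air and SHS females and at 6.47, 6.62, 6.57 and 6.48 and 6.78, 6.80, 6.92 and 6.71 in air and SHS males. The groups overlapped in females and were apart in males, with differences of 0.21 ± 0.08 (adjusted p = 0.205) and 0.27 ± 0.08 (adjusted p = 0.0707). Its 4 probe sets disagreed. A dimmer probe set gave 0.99 in females (adjusted p = 0.000442) and 0.76 in males (adjusted p = 0.00259), and a further one 0.57 in females (adjusted p = 0.0149). Cdc25c, a phosphatase that activates Cdk1, was at 4.81, 5.29, 5.06 and 5.43 and 5.41, 5.59, 5.44 and 5.32 in air and SHS females and at 4.95, 5.29, 4.51 and 5.31 and 5.53, 5.68, 5.33 and 5.28 in air and SHS males. The air lungs were widely spread and overlapped the SHS lungs, with differences of 0.29 ± 0.16 (adjusted p = 0.385) and 0.44 ± 0.16 (adjusted p = 0.121). Its other probe set was called in males (0.41, adjusted p = 0.0229).

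Nek2, a kinase that separates centrosomes, lay at 8.505, 8.61, 8.44 and 8.43 in air and 9.07, 8.90, 9.29 and 8.60 in SHS females, and at 8.87, 9.02, 8.54 and 8.59 in air and 9.22, 9.13, 9.28 and 8.99 in SHS males. The lowest SHS lung of each sex overlapped the highest air lung. The differences of 0.47 ± 0.13 (adjusted p = 0.0543) and 0.40 ± 0.13 (adjusted p = 0.0775) missed the threshold, and both were called without SHS female 4 (adjusted p = 0.00443 and 0.0335) or air male 2. Dlgap5, which stabilises spindle fibres at kinetochores, was at 6.27, 6.38, 5.91 and 6.34 and 6.79, 6.97, 6.75 and 6.41 in air and SHS females and at 6.09, 6.52, 5.94 and 6.16 and 6.95, 6.96, 6.95 and 6.57 in air and SHS males. Its groups were apart in both sexes, and it rose in males (0.68 ± 0.14, adjusted p = 0.00948) and was not called in females (0.50 ± 0.14, adjusted p = 0.0621; 0.0109 without SHS female 4, and also called without SHS male 4 or air male 2). Ckap2, a microtubule-stabilising protein, was at 6.95, 6.81, 6.94 and 7.08 and 7.33, 7.76, 7.53 and 7.13 in air and SHS females and at 7.17, 7.36, 7.22 and 7.25 and 7.59, 7.75, 7.69 and 7.32 in air and SHS males. SHS male 4 lay below an air male. Ckap2 rose in females (0.49 ± 0.12, adjusted p = 0.0267), a call lost without air female 2 or 3 or SHS female 2 or 3 (highest adjusted p = 0.0956, without air female 2), and was not called in males (0.34 ± 0.12, adjusted p = 0.101; 0.0443 without SHS male 4). The test of the difference between the sexes was not passed by either gene.

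The 69 probe sets of 36 members that were not the brightest gave 29 higher calls in females, 31 in males and 0 lower calls, with medians of 0.37 and 0.35. Over all 123 probe sets, 76 were higher in females and 78 in males, beside 2.36% and 3.07% of the 45037 probe sets tested. Counting a gene as called when any of its probe sets was, 48 genes rose in females and 50 in males, beside 4.13% and 5.46% of all genes under the same rule.

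SHS lung 4 was the lowest of its group for nearly all of these genes in both sexes. In SHS females lung 4 was lowest for 52 of 54 genes, beside 30.0% of all genes and 78.4% of the 552 other genes called higher in females. In SHS males lung 4 was lowest for 49 of 54, beside 28.7% of all genes and 42.8% of 711 other genes called higher in males. The median over the 54 genes, as a deviation from the same-sex air mean, was 0.84, 0.99, 0.99 and 0.46 in SHS females 1 to 4. In SHS males 1 to 4 it was 0.82, 0.78, 0.79 and 0.49. In the air females it ran from -0.11 to 0.07 and in the air males from -0.10 to 0.13, so both lungs numbered 4 were above all air lungs by this median. Of the 54 genes, 51 in SHS female 4 and 53 in SHS male 4 lay above the air mean of their sex. Without both lungs numbered 4, an alternative added after these values were seen, 49 genes rose in females and 50 in males, with medians of 0.96 and 0.80. All genes gave more calls too without them, with 8.15% higher in females and 5.43% in males.

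Eosinophil markers moved with these 2 lungs. Of 8 measured markers 0 were called in either sex (limma), with 0 at an unadjusted p under 0.05 in females and 1 in each direction in males. Their median deviation was -0.89 in SHS female 4 and 0.18 to 0.46 in the other 3, and -0.52 in SHS male 4 and 0.06 to 0.25 in the other 3. The mean level of the list ran from 7.47 to 7.62 in air females, 6.77 to 8.22 in SHS females, 7.40 to 7.74 in air males and 7.13 to 8.03 in SHS males. T cell and B cell markers were also lowest in lung 4 of each SHS group, with median deviations of 0.03 and 0.06 in SHS female 4 and -0.16 and -0.20 in SHS male 4. So were monocyte, plasma cell, germinal centre B cell and smooth muscle markers. These lay at 0.01, -0.04, -0.10 and -0.01 in SHS female 4 and at 0.05, -0.44, -0.13 and 0.12 in SHS male 4. Other lists stood apart the other way. In SHS females and males respectively, endothelial markers were at 0.17 and 0.25 in lung 4 and from -0.33 to -0.02 in the other 6 lungs, and alveolar type 1 markers at 0.21 and 0.10 and from -0.18 to -0.09. Alveolar macrophage markers were also highest there, at 0.36 and 0.39, as were club cell markers, at -0.02 and 0.07, and fibroblast markers, at 0.08 and 0.0006. Of 27 marker lists, SHS female 4 was the lowest of its group in 11 and the highest in 9, and SHS male 4 the lowest in 8 and the highest in 11. The S phase genes were at 0.35 in SHS female 4 and 0.54 to 0.70 in the other 3, and at 0.44 in SHS male 4 and 0.52 to 0.53 in the other 3. The array of SHS female 4 correlated at 0.992 on average with its own group and at 0.995 with the air females over all probe sets. That of SHS male 4 went the other way, with 0.995 for its own group and 0.993 for the air males. The part of these features in the lower mitotic values was not tested.

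**Figure D3:**
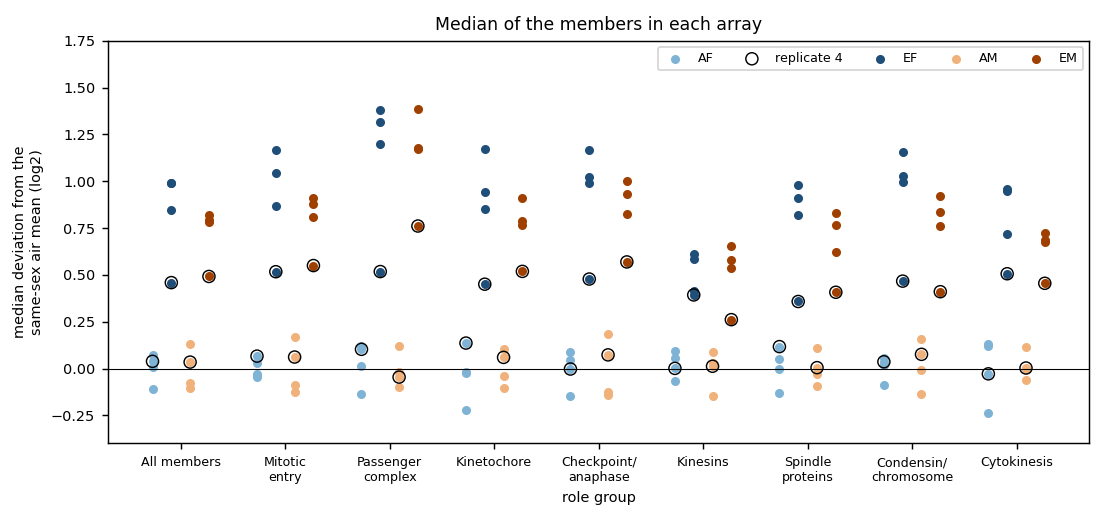
Median deviation of the mitotic genes from the same-sex air mean (log2) in each array, for all 54 genes and for each role group; points are arrays (AF air females, EF SHS females, AM air males, EM SHS males) and black rings mark replicate 4. Over all genes the SHS arrays numbered 4 lie at 0.46 and 0.49, below the other SHS arrays at 0.78 to 0.99 and above every air array.

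No difference between the sexes in the SHS effect passed the test. The interaction, the female minus the male difference, was called for 0 of 54 genes (limma), as for 0% of all genes, and had an unadjusted p under 0.05 for 2 of 54, beside 8.27% of all genes. Those were Tpx2, with 0.49 ± 0.19 (unadjusted p = 0.0165, adjusted p = 0.528), and Kif20a, with 0.41. The female difference was the larger for 40 of 54 genes, beside 51.0% of all genes. Across the 54 genes the female and male differences had Pearson's r of 0.892 and Spearman's rho of 0.858, given as a description over genes, which share the lungs and are not independent. Called in both sexes were 46 genes, beside 1.94% of all genes, and 6 were called in neither. By role, the female median exceeded the male in every group except the passenger complex and the kinesins.

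**Figure D4:**
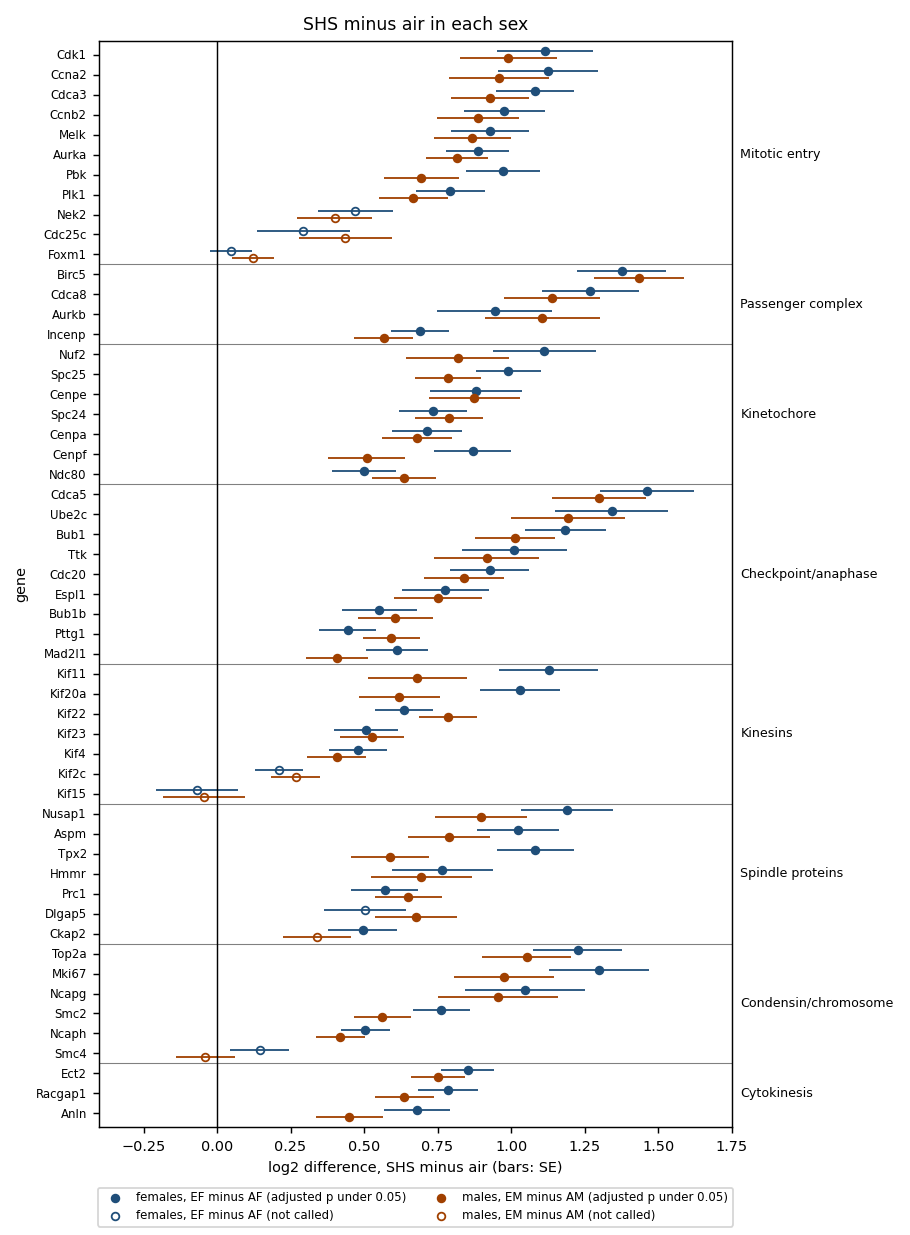
Log2 difference, SHS minus air, of each mitotic gene in females (blue) and males (orange), grouped by role and ordered by the mean of both within a group; bars are SE and open symbols were not called at an adjusted p under 0.05. Most points lie between 0.4 and 1.5 in both sexes, and Foxm1, Kif15 and Smc4 lie near 0.

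Other genes of cell division were counted in lists, again as higher in females and males. The share of all genes called higher was 3.29% in females and 4.17% in males. Most of the S phase list rose, 15 and 13 of 16 genes, with medians of 0.59 and 0.51. Rrm2, a ribonucleotide reductase subunit, Cdc6, which licenses replication origins, and the helicase subunit Mcm5 had differences of 1.43, 1.11 and 0.93 in females and 1.33, 1.10 and 0.89 in males. Of 16 centromere genes 8 and 8 rose, led by Cenpw (0.96 and 0.99), Cenpi (0.93 and 0.63) and Cenph (0.81 and 0.66). Most of this list belongs to the constitutive centromere network, which sits beneath the kinetochore through the whole cycle. Cenpb, Oip5 and Mis18a do not, and Oip5 was among the female calls (0.31, adjusted p = 0.0479 in limma). Of 15 outer kinetochore and checkpoint partners, 5 and 6 rose, among them Zwilch (0.92 and 0.62), Ska1 (0.89 and 0.64) and Casc5 (0.65 and 0.76), the scaffold on which checkpoint kinases gather. Of 22 other mitotic motors and spindle factors 5 and 6 rose, including Depdc1a (0.89 and 0.81) and Kif20b (0.76 and 0.64). Spag5, astrin, rose in females by 0.79 and was at 0.42 in males (adjusted p = 0.0664). Of 10 cytokinesis partners 3 and 4 rose, with Shcbp1 at 1.32 and 1.12 and Cep55, a protein of the final cut between daughter cells, at 1.30 and 1.04.

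Lists whose proteins also serve non-dividing cells gave the following counts, beside the 3.29% and 4.17% of all genes called higher. Of 14 genes of cohesin, the ring that holds sister chromatids and also shapes interphase chromatin, 3 and 3 rose, and medians were 0.04 and -0.05. The 3 were Esco2 (1.20 and 0.88), which acetylates cohesin in S phase, and the centromere guardians Sgol1 (0.73 and 0.59) and Sgol2 (0.72 and 0.50). Of 14 subunits of the anaphase-promoting complex 0 and 0 were called in limma, 1 was higher at an unadjusted p under 0.05 in each sex, and medians were 0.01 and 0.0015. The smallest adjusted p was that of Anapc1 in males, where its difference was 0.19 (adjusted p = 0.181), and in females that of Fzr1, an activator of the complex, at 0.20 (adjusted p = 0.227). Of 14 transport kinesins 0 and 0 were called, 2 and 4 were lower at an unadjusted p under 0.05, and Kif16b was at -0.09 and -0.29 (adjusted p = 0.0746 in males). Of 4 other condensin subunits Ncapd2 rose in both sexes (0.83 and 0.79) and Ncapg2 in females (0.64; 0.29 in males, adjusted p = 0.119). Of 9 tubulins 4 and 6 rose, with Tubb6 at 0.61 and 0.73 and Tubb5 at 0.33 and 0.47. Tubb2b rose in females (0.57) and was at 0.31 in males (adjusted p = 0.189).

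Regulators that act before mitosis were counted in the same way, beside the same 3.29% and 4.17% of all genes called higher. Of 12 G1 cyclins and kinases 2 and 2 rose. Ccne2, cyclin E2, rose by 0.77 and 0.58, Ccne1 rose in females (0.41; 0.33 in males, adjusted p = 0.0647) and Ccnd3 in males (0.40; 0.14 in females, adjusted p = 0.483). A list of 11 genes held subunits of MuvB and DREAM, complexes that hold mitotic genes silent in resting cells and activate them in dividing ones, with related E2F factors, and 3 and 3 rose. Of its 5 MuvB core genes, Lin9, Lin37, Lin52, Lin54 and Rbbp4, 0 were called in either sex (limma), and 1 in females and 0 in males were higher at an unadjusted p under 0.05. The atypical E2F repressors E2f7 and E2f8, which are not subunits of these complexes, rose by 0.60 and 0.70 in females and 0.40 and 0.55 in males, and Mybl2, B-Myb, rose in females by 0.46 (0.30 in males, adjusted p = 0.0801). Tfdp1, a partner of E2F factors, was the third called in males (0.31; 0.18 in females, adjusted p = 0.328). Among 17 inhibitors and quiescence factors 2 rose in females, and 1 rose and 1 fell in males. Fbxo5, an inhibitor of the anaphase-promoting complex that is itself made in dividing cells, rose in females (0.61; 0.38 in males, adjusted p = 0.0656). The p53 target Cdkn1a rose in females (0.36; 0.30 in males, adjusted p = 0.0701). Gas1, a growth arrest gene, was lower in males (-0.39, adjusted p = 0.0035; -0.20 in females, adjusted p = 0.146). Of 11 meiosis-restricted genes, a check on mitotic against germline transcripts, 0 were called in females, with 0 at an unadjusted p under 0.05, and in males Sycp3 was lower (-0.60, adjusted p = 0.0133). Over all 14 lists, whose sizes are given above, 51 genes were called in females and 54 in males. Kif20b, in both the spindle and the cytokinesis list, was counted once. Of all genes 3.97% and 6.63% were called in either direction. The male count was 35 without air male 3 and 31 without SHS male 3. Male calls over all 45037 probe sets fell there too, from 2332 to 1178 and 1073.

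**Figure D5:**
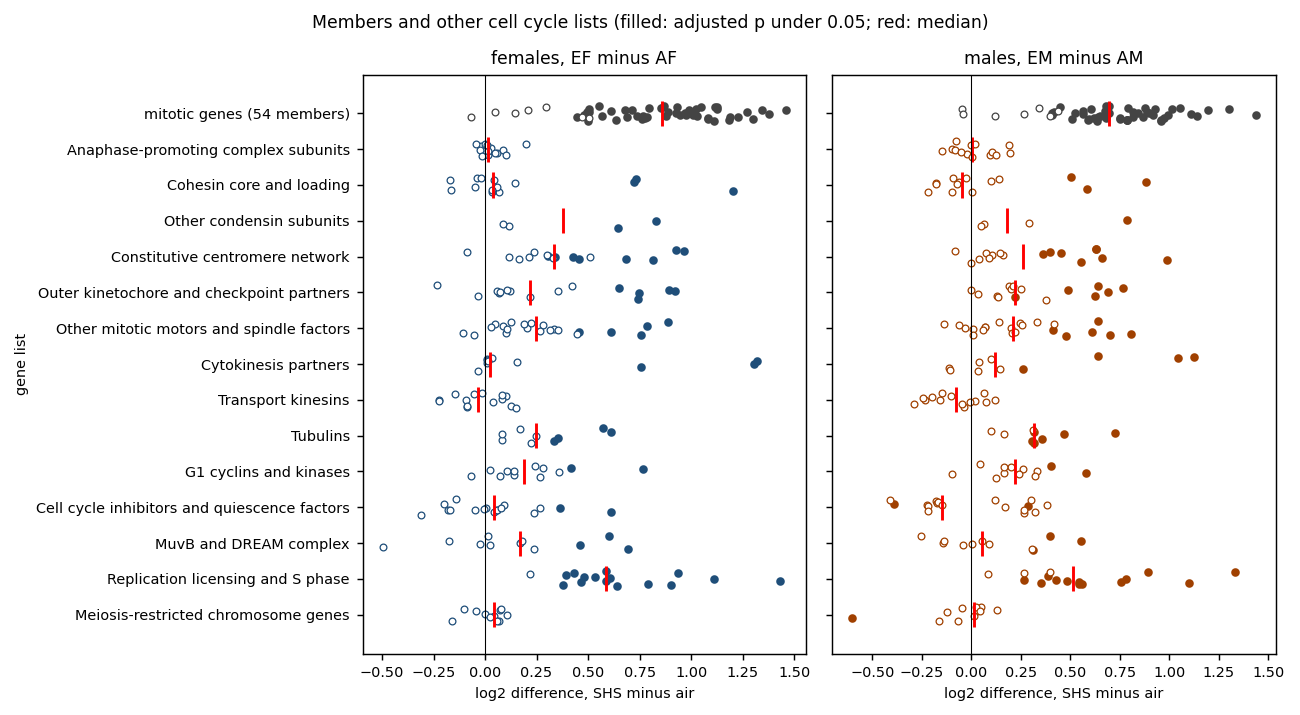
Log2 difference, SHS minus air, of the 54 mitotic genes (grey) and of the genes of 14 other cell cycle lists, in females (left) and males (right); filled points were called at an adjusted p under 0.05 and red bars are medians. The mitotic genes and the S phase list are centred well above 0, with medians of 0.86 and 0.59 in females, and the anaphase-promoting complex and the transport kinesins lie around 0.

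Of 208 markers of 27 cell types of lung, blood and adjoining tissue, 11 were called in females (8 higher, 3 lower), or 5.29%, where 3.97% of all genes were called in either direction. In males 18 were called (14 higher, 4 lower), or 8.65%, beside 6.63% of all genes. These shares lay near those of all genes, and most lists with a call held only 1. The lists with at least 4 markers in 1 direction at an unadjusted p under 0.05 (limma) in females were these. Higher were 5 of 9 monocyte and 5 of 9 T cell markers. So were 4 of 8 alveolar macrophage, 4 of 10 B cell and 4 of 10 dendritic cell markers. Lower were 4 of 7 club cell and 4 of 10 fibroblast markers, with 2 fibroblast markers higher. In males the higher counts were 3, 0, 2, 1 and 4, with 1 B cell marker lower, and the lower counts 2 and 2. These lists were picked by their female counts, so lower male counts in them are no sign of a difference between the sexes. In males 4 of 7 smooth muscle, 4 of 8 goblet cell and 5 of 7 cardiac muscle markers were also higher at that level. The share of all genes at that level was not counted, so the counts have no background beside them. The label of lung was borne out by the level of 8 alveolar type 2 cell markers, whose mean was 13.1 to 13.5 in every array. The macrophage receptor Mrc1 was higher in both sexes (0.72 in females and 0.66 in males), as 1 of 8 alveolar macrophage markers. The medians of that list were 0.24 and 0.12. Cd14 was higher in both (0.69 and 0.76), as 1 of 9 monocyte markers, with list medians of 0.26 and 0.21. Pf4 was also higher in both (0.77 and 0.69), as 1 of 6 platelet markers, with list medians of -0.06 and 0.08. Fcer2a, a receptor for IgE, was 1 of 10 B cell markers (1.03 and 0.89), with list medians of 0.30 and 0.02. Tfrc, the transferrin receptor of erythroid precursors and of dividing cells in general, was 1 of 8 erythroid markers (0.67 and 0.56). Scgb3a2, a secretoglobin, was lower in both sexes (-0.84 and -0.65), as 1 of 7 club cell markers. The lists with more than 1 call were dendritic cells, with 2 of 10 in females and 3 of 10 in males, goblet cells, with 3 of 8 in males, and alveolar type 2 cells, with 2 of 8 lower in males. Ccl17 was at 1.09 (adjusted p = 0.0178), Agr2 at 0.96 (adjusted p = 0.0185) and Etv5 at -0.41 (adjusted p = 0.0183) in males.

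Tissues rich in dividing cells can be taken along with a lung, so their lists were read too. Of 7 measured thymocyte markers 0 were higher in either sex, Cd1d1 was the 1 called lower, in males, and the list mean was 6.39 to 6.42 in air females, 6.34 to 6.43 in SHS females, 6.45 to 6.49 in air males and 6.35 to 6.40 in SHS males. Of 6 germinal centre B cell markers 0 were called in either sex in limma, with 1 lower at an unadjusted p under 0.05 in males, and medians were -0.0038 and -0.02. Of 8 erythroid precursor markers only Tfrc was called, and the medians were -0.10 and -0.03. Of 8 neutrophil precursor markers only Chil1 was called, in males, with medians of 0.06 and 0.01. Cardiac muscle markers had no call, with 5 of 7 higher in males at an unadjusted p under 0.05, a male median of 0.85 and list means of 8.42 to 9.82 in air males and 9.61 to 10.2 in SHS males; the female median was 0.0021. The counts of marker calls moved with single lungs. In females there were 42 without SHS female 4, 7 without air female 2 or 4, and 6 without air female 3 or SHS female 3. In males there were 28 without SHS female 4, 5 without air male 1, 7 without air male 3, and 10, 11 and 6 without SHS males 1, 2 and 3. Calls over all 45037 probe sets moved as well. With all arrays they were 1294 in females and 2332 in males. Without SHS female 4 they were 3604 and 3153. Without air female 2, 3 or 4 or SHS female 3 they were 674 to 797 in females. Without air male 1 or 3 or SHS male 1, 2 or 3 they were 1073 to 1370 in males. The RNA quality ratio of 3′ to 5′ probe sets did not separate SHS from air lungs, with two-sided exact permutation p of 0.743 and 0.457 for Gapdh and 0.486 and 0.143 for Actb in females and males (the smallest p possible was 0.0286). Which cells carried the mitotic transcripts was not measured, and the part of any marker list in the rise was not tested.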

How the data were processed

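The authors deposited 1 log2 value per probe set and array (array medians 7.00 to 7.04), in 1 series table, per the labels from total RNA on Affymetrix 430 2.0 arrays. The sources used here give no method of summarisation or normalization. Limma appears, with no version or role, in the submitters' processing notes. The log base was taken as 2 from the range of the values, 2.58 to 15.2. Array intensity before summarisation was not analysed here. Of 45101 features 64 controls were left out. Probe sets with exactly 1 gene symbol in the platform annotation named genes. A model with 1 mean per group was fitted to each of 45037 probe sets with limma 3.58.1 (lmFit, eBayes) in R 4.3.3, with 12 residual and 5.56 prior degrees of freedom. Tests were two-sided, with Benjamini-Hochberg adjustment over all probe sets and calls at an adjusted p under 0.05. Errors are the model's SE, and the 4 mice per group limit the precision. The members and all lists were chosen with earlier results of these data known. Values in every array were given for the 2 genes of each role with the largest mean difference and for the 8 members not called in both sexes; from other lists up to 3 called genes were named, from marker lists up to 2, and where none was called the gene with the smallest adjusted p. Fzr1, Tfdp1 and the MuvB core genes were named after their values were seen. Motifs were counted with Python 3.11.15, and figures drawn with matplotlib 3.10.9. The steps were tested on simulated data. Alternatives were quantile normalization, median centring, a filter on dim probe sets, the replicate number as a block, array weights, a trended robust prior, the compared arrays alone, a looser threshold, a 1.5-fold minimum, the mean of a gene's probe sets and each array left out. Replicate numbers were not taken to pair the mice. Deviations from the group means correlated at -0.08 to 0.27 between same-numbered air and SHS lungs of a sex. Between differently numbered ones they correlated at -0.22 to 0.32. SHS females and SHS males of the same number were not compared in this way.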

Additional observations from a re-analysis of the deposited data

Results flagged for a closer look

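In 220 groups of 4 values, 19 (8.64%) had a lung far from the other 3, measured as the gap to its neighbour over the group's range, which chance gives in about 1 group in 20. Most were SHS male 4. It was the lowest for Ccna2 (8.10, the nearest at 8.71), Ccnb2 (7.92), Melk (7.05), Cenpe (7.00), Bub1 (7.94), Mad2l1 (9.12), Cdc20 (9.57), Nusap1 (8.71), Dlgap5 (6.57), Smc4 (11.09), Top2a (9.34) and Mki67 (10.00, the nearest at 10.56). It was the highest for Kif15 (6.64, the nearest at 6.26). The median deviation over all 54 genes was 0.49 in SHS male 4, with the nearest of the other 3 at 0.78. SHS female 4 was the lowest for Cdca8 (7.61) and Mki67 (9.49). Among the controls, air female 2 was the lowest for Incenp (8.28) and Anln (7.18), and air female 4 the highest for Spc24 (7.02). These genes share the same lungs, so the counts are not independent.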

How the results depend on the processing

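Under the alternatives with no fold minimum and no array left out, 42 to 49 members rose in females and 46 to 50 in males; with a 1.5-fold minimum 39 rose in each sex. With the mean of a gene's probe sets, the medians over the members were 0.64 in females and 0.57 in males. With the brightest probe set they were 0.86 and 0.69. Scaling moved the median of all genes by less than 0.1. The replicate number as a block, not taken here to pair the mice, called 49 members in females and 48 in males. With 1 of 16 arrays left out, 41 to 49 members rose in females and 40 to 49 in males, 0 fell, 0 interactions were called, and the medians were 0.78 to 0.96 and 0.67 to 0.80. Of the called members, 40 of 47 in females and 39 of 47 in males were called in all 16 of these fits. Kif15, not called in any of these fits, ran from -0.14 to 0.036 in females, reversed without air female replicate 3, and from -0.19 to 0.049 in males, reversed without air male replicate 3. Calls in the other pathway lists, 51 and 54, were 41 to 69 and 31 to 61 with an array left out, and 33 and 24 with the 1.5-fold minimum. Calls in the marker lists, 11 and 18, were 6 to 42 and 5 to 28 with an array left out. In females they were 18 with the replicate block, 31 with array weights, 4 with the female arrays alone and 18 at an adjusted p under 0.10. In males they were 32 with array weights and 10 with the 1.5-fold minimum. Without both SHS lungs numbered 4, chosen after seeing the data, they were 44 and 35, beside 3954 and 3315 of 45037 probe sets called. The cause of these changes in counts was not tested.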
